A study of Arabidopsis thaliana with 32 samples.

Results

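The 35S:FIP37 seedlings carried 4762 listed peaks of N6-methyladenosine (m6A), the methylation of adenosine inside messenger RNA, and 1891 of them (39.7%) overlapped no peak of 35S:FIP373A seedlings and none of NAA-treated tmk4 mutants. These 1891 peaks are the members described here. A peak counted as a member when it shared not even 1 base with a peak of either other list. The members lie on 1282 of the 2273 genes that had any 35S:FIP37 peak.

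In plants m6A is written by a protein complex in which FIP37 is a subunit that acts beside the catalytic enzymes. YTH-domain proteins such as ECT2 bind the mark, and it is known to affect the stability of transcripts and the development of leaves and shoots. TMK4, a transmembrane kinase, takes part in auxin responses, and NAA is a synthetic auxin.

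The series measured Arabidopsis thaliana seedlings 15 days old in 32 libraries. The m6A experiment had 20 of them, an immunoprecipitate and an input for each of 2 replicates: wild type with mock or with 50 µM NAA for 3 h, tmk4-1 with the same NAA treatment, and 2 lines named 35S:FIP37 and 35S:FIP373A, for which the labels give no treatment. The other 12 were RNA-seq libraries of wild type and of fip37 LEC1:FIP37, each with mock or NAA for 3 h, with 3 replicates per group. In the 35S lines the named FIP37 version stands behind 35S, a viral promoter active in most plant tissues. The labels give neither the background genotype of these lines nor how many independent lines were used. By its name, fip37 LEC1:FIP37 is the fip37 mutant with FIP37 expressed from LEC1, whose promoter is active in embryos. Nothing in the labels says that replicates came from separate cultures, so p-values measure the spread between these libraries, which may be technical.

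FIP37 RNA was at 57.9, 87.3 and 91.8 RPKM (reads scaled by gene length and library size) in fip37 LEC1:FIP37 with mock, against 11.3, 12.4 and 11.3 RPKM in wild type with mock. The level was higher in the libraries labelled as the mutant (log2 difference 2.64, SE 0.29, limma, Benjamini-Hochberg adjusted p = 3.83e-05). The table does not separate reads of the endogenous gene from those of the transgene, so it does not check that label. Wild-type NAA replicate 3 stood apart from the other RNA libraries: its genes differed from the mean of the other 2 of its group with an SD of 0.626 on the log2 scale, against 0.180 to 0.366 in the other 11 libraries. Summed over 3 shoot markers (RBCS1A, CAB1 and LHCB2.1), levels were 22764 to 24262 RPKM in wild type with mock, 17006 to 19538 RPKM in wild type with NAA, and 26336 to 32878 and 26721 to 30668 RPKM in fip37 LEC1:FIP37 with mock and NAA. The 3 root markers (PYK10, COBL9 and TIP2;3) summed to 425 to 499, 232 to 319, 838 to 1233 and 720 to 808 RPKM in the same order. COBL9 was at 0.152 to 2.52 RPKM throughout, and TIP2;3, a root aquaporin gene, was at 16.9 to 20.7 RPKM in wild type with mock and at 0.836 RPKM or less in fip37 LEC1:FIP37, listed at 0 in 1 library. The part of organ proportions in the RNA results was not tested, and fewer cells of a type and less RNA per cell cannot be told apart in whole seedlings.

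Most members were the smallest unit that the list resolves. The authors' peaks of the 35S lines and of tmk4 run on exons in steps of 50 nt, and 1461 members (77.3%) covered 1 step, against 32.3% of the 2871 other 35S:FIP37 peaks. The authors' enrichment score had a median of 2.59 for members, with a range of 1.13 to 40.4, and of 2.28 for the others. Their score column, read here as a p-value, had a median of 1.08e-06 for members and 1.22e-10 for the others. The lists that gave these values also fixed the membership, so they are a description with no test.

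Membership ran with the RNA level of the gene. Of the 1587 peaks on the genes of lowest level, with means up to 41.3 RPKM over the 12 RNA libraries, 972 (61.2%) were members. Of the 1587 peaks in the middle of that order 618 (38.9%) were members, and of the 1588 peaks on the genes of highest level, with means from 102 RPKM, 301 (19.0%). The median level of member genes was 32.6 to 43.2 RPKM across libraries, below the 66.9 to 83.4 RPKM of genes whose 35S:FIP37 peaks were all shared with the other lists. It was above the 7.67 to 9.86 RPKM of the 18072 genes that averaged 1 RPKM or more. The part of read depth in the calling of single 50-nt steps was not tested.

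**Figure D1:**
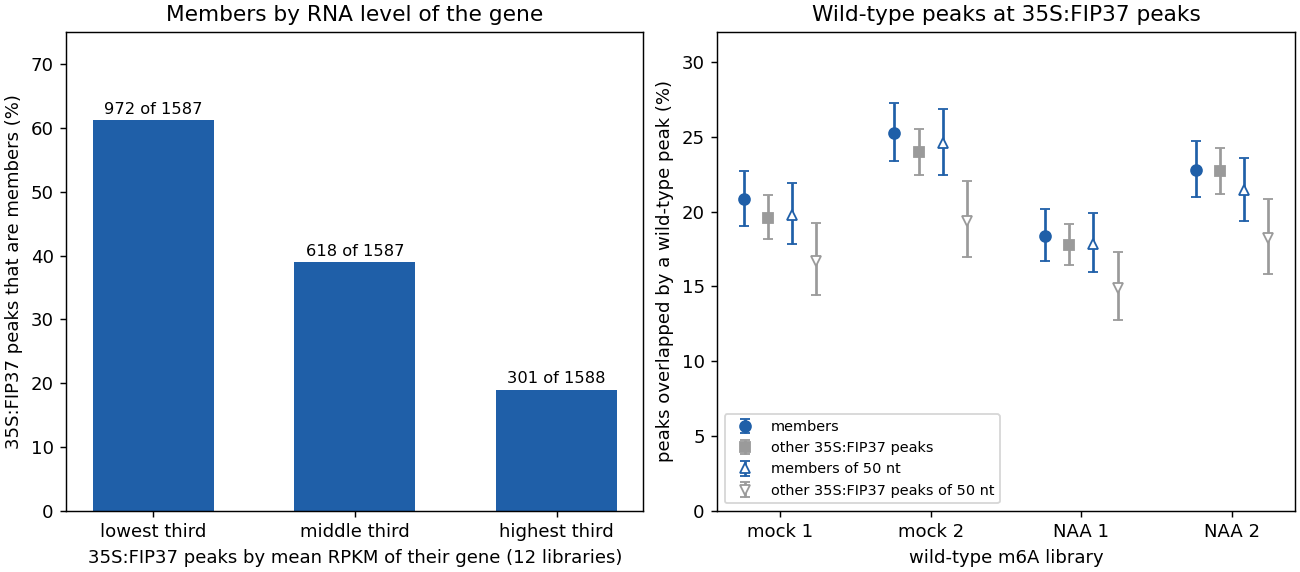
Left, share of 35S:FIP37 peaks that are members (per cent) in 3 groups of peaks ordered by the mean RPKM of their gene. It goes from 61.2% in the lowest to 19.0% in the highest group. Right, share of peaks (per cent) overlapped by a peak of each wild-type list, for members, other 35S:FIP37 peaks and the 50-nt peaks of each, with 95% Wilson intervals; intervals of members and others overlap in every library, and those of the 50-nt peaks do not in mock replicate 2 (22.4% to 26.8% for members and 16.98% to 22.1% for others).

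The edge of the rule was sharp in bases and less so in distance. With 0 bases between, 225 members abutted a peak of the other lists, as on TBL25, BPS1 and PEX11C. The smallest overlap of a non-member was 50 bp, or 1 step, and 1227 non-members had it, among them 3 on the kinase gene CIPK9. Of the members, 500 lay nearer than 200 nt to a peak of the other lists, 1391 at least 200 nt away and 881 at least 2000 nt away. For 917 members the same gene had a 35S:FIP373A peak elsewhere. At the other extreme, 905 members lay on 603 genes with no peak at all in the 35S:FIP373A and tmk4 lists.

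The opposite selection gave a set of similar size. The 35S:FIP373A list held 4294 peaks, of which 1458 (33.95%) overlapped neither a 35S:FIP37 nor a tmk4 peak. The tmk4 list held 1865 peaks and overlapped 10.8% of the 35S:FIP37 peaks, against 57.9% overlapped by 35S:FIP373A peaks. Without the tmk4 list the rule would give 2003 members in place of 1891. Each genotype has 1 list for its 2 replicates, and the presence of a peak in single replicates of the 35S lines and of tmk4 was not analysed here.

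Members were spread over many genes, and a few genes carried several. Of the 1282 genes, 847 had 1 member, 313 had 2, 82 had 3 and 33 had 4. The nucleoside transporter gene ENT1, the SnRK1 kinase subunit gene AKINBETA1, AT5G63620 and AT5G06440 had 5 each, the blue-light receptor gene PHOT1 had 6, and the glutamate synthase gene GLT1 (AT5G53460) and AT1G01320 had 7 each. On ENT1, AKINBETA1 and AT5G63620 every 35S:FIP37 peak was a member and neither other list had a peak. On GLT1 the 7 members stood among 11 35S:FIP37 peaks, with 6 peaks of 35S:FIP373A and 5 of tmk4 on the same gene. The share of members among 35S:FIP37 peaks was alike on the 5 chromosomes, from 38.1% to 42.1%.

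The 8 members of highest enrichment score were all 50 nt long. They lie on the organelle RNA-editing gene ORRM6 (score 40.4), AT5G10050 (score 40.4), the oligosaccharyltransferase gene STT3A (score 37.5), the mitochondrial complex I gene GAMMA CAL1 (score 32.2), AT1G34640 (score 31), the reticulon gene RTNLB4 (score 30.8), YLMG1-1 (score 30.8) and the histone deacetylase gene HDA19 (score 27.3). The HDA19 peak, at 17896334 to 17896383 of chromosome 4 (TAIR10, minus strand), was overlapped by all 4 wild-type lists and abutted a tmk4 peak. The peaks of ORRM6 and YLMG1-1 also abutted a peak of the other lists. The GAMMA CAL1 peak was held by both wild-type mock lists, the STT3A peak by NAA replicate 1 and the RTNLB4 peak by NAA replicate 2. The other 4 of these 8 were held by no wild-type list.

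Auxin genes were ordered by role: perception and signalling, transport, conjugation and synthesis. Of the perception and signalling genes, 7 had a 35S:FIP37 peak and 6 had a member, and 10 of their 16 peaks were members, against 39.7% over all genes of the list. The 6 genes with a member had a median of 27.1 RPKM, within the range of the group of lowest RNA level. In that group 61.2% of peaks were members. TIR1, the F-box auxin receptor, had members at 23273263 to 23273312 and at 23273513 to 23273562 of chromosome 3 (minus strand), with enrichment scores of 3.76 and 2.53. Both were overlapped by a wild-type peak in mock replicate 2 and in NAA replicate 1. TMK1, a receptor-like kinase related to TMK4, had 4 members between 24633088 and 24634371 of chromosome 1, with scores of 2.91, 4.24, 3.403 and 3.502 in 5′ to 3′ order. The last pair was overlapped in mock replicate 1 and NAA replicate 1, and neither the 35S:FIP373A nor the tmk4 list had a peak on TMK1. The Aux/IAA repressor genes IAA8, IAA17 and IAA18 had 1 member each, held by no wild-type list. The member of ARF2, an auxin response factor that represses transcription, was held by both NAA lists and no mock list.

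Of the auxin transport genes, 9 had a 35S:FIP37 peak and 6 had members, 11 of 25 peaks. The influx carrier gene AUX1 had 4 members on chromosome 2 and no peak in the other lists. The first spanned 15973226 to 15973586 with a score of 2.68, and the others began at 15976037, 15976337 and 15976787 with scores of 7.33, 8.14 and 1.98. No wild-type list held any of them. The efflux carrier genes PIN3 and PIN7 had 2 members each, all at most 200 nt from a peak of the other lists. ABCB19, which encodes an auxin-exporting ABC transporter, had 1 member that all 4 wild-type lists held. ABCB1 and the carrier gene PILS3 had 1 each. GH3.6, which encodes an enzyme that conjugates auxin to amino acids, had 1 member, held in NAA replicate 1. Auxin biosynthesis genes had 0 members: 2 of 26 listed genes had a 35S:FIP37 peak, 1 on the nitrilase gene NIT1 and 3 on the tryptophan synthase gene TSB1, and all 4 peaks were shared. The 35S:FIP373A list had peaks on 8 of those genes (AAO1, ASA1, ASB1, CYP79B2, NIT1, NIT2, TSA1 and TSB1).

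**Figure D2:**
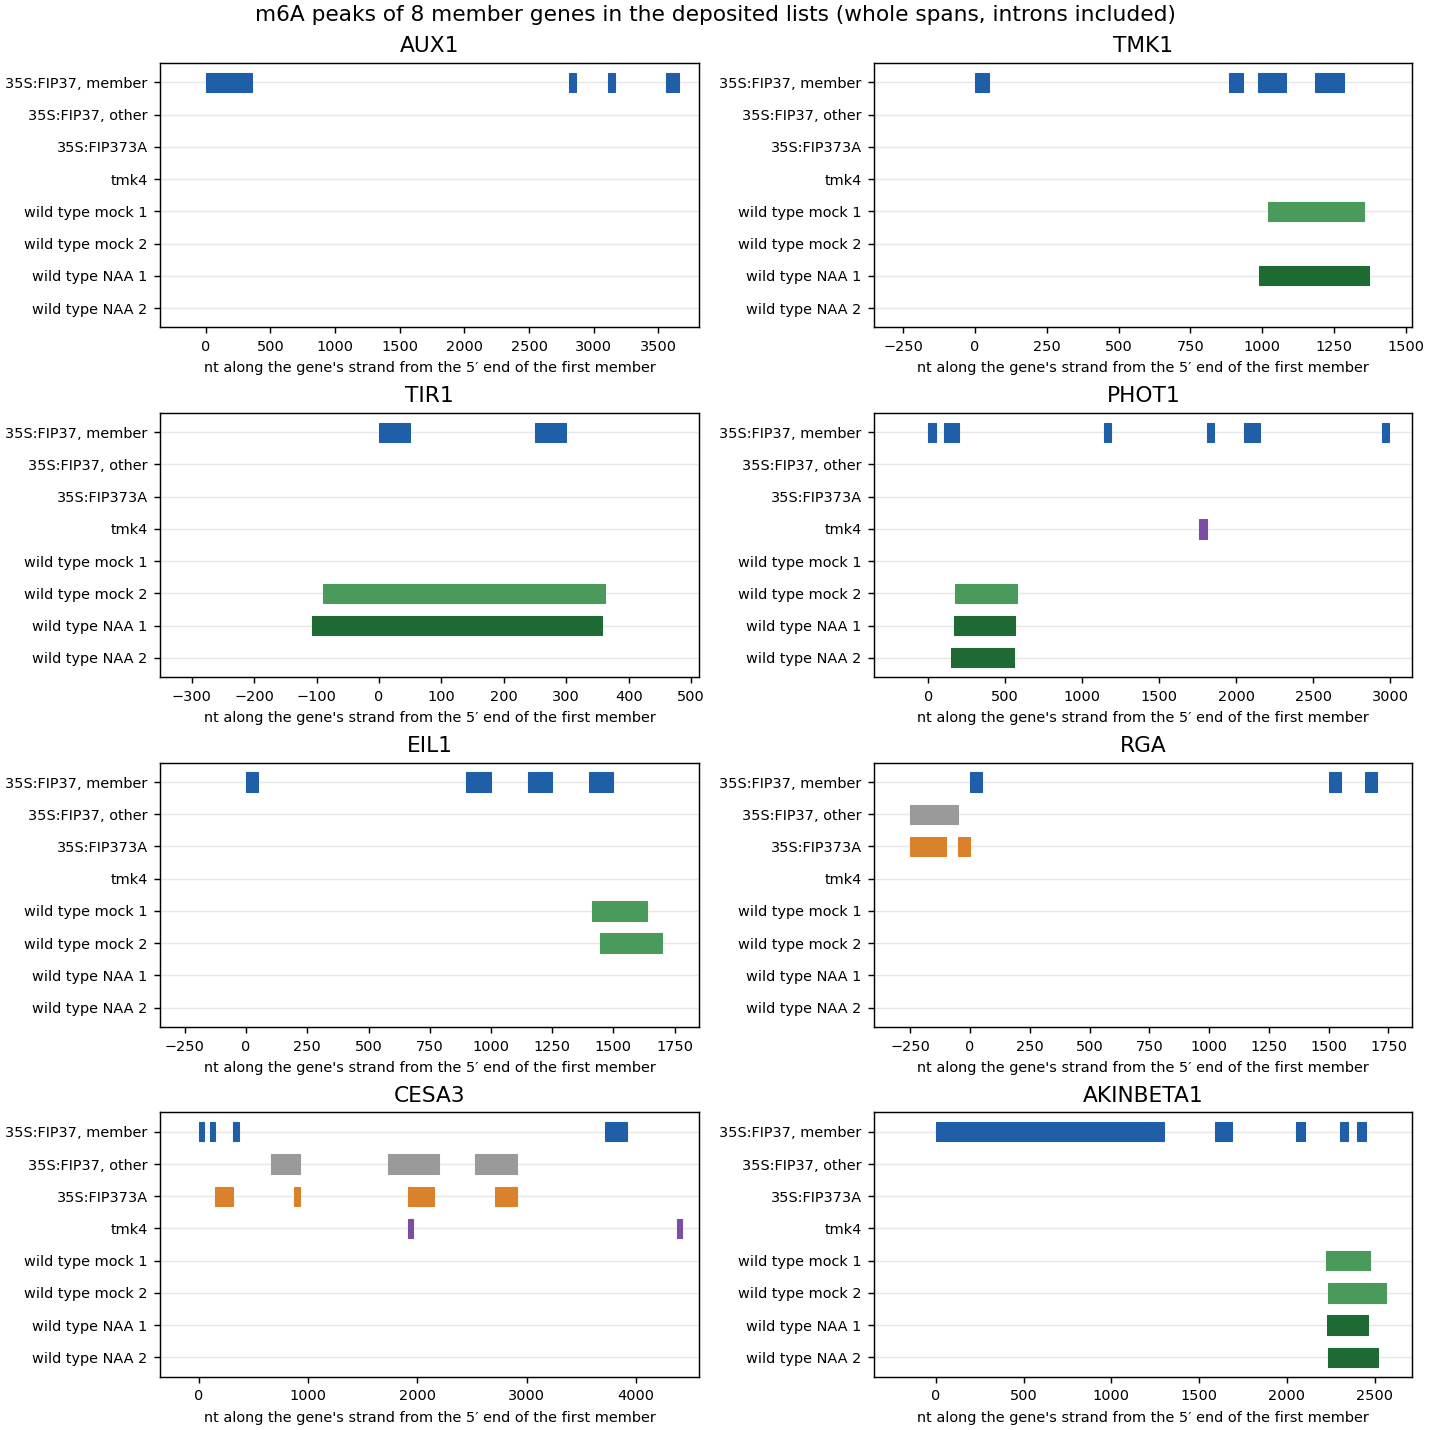
Peaks of 8 member genes in the deposited lists, with 1 row per list and the distance in nt along the gene's strand from the 5′ end of the first member on the horizontal axis; bars are whole spans of peaks. AUX1, TMK1, TIR1, EIL1 and AKINBETA1 have members and no 35S:FIP373A or tmk4 peak in view, whereas on CESA3 the shared 35S:FIP37 peaks lie between members.

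Light signalling had members on all 10 genes with a 35S:FIP37 peak, 22 of 32 peaks, against 56.4% of genes and 39.7% of peaks over the whole list of peaks. This comparison is matched neither for RNA level nor for the number of peaks per gene. They were the photoreceptor genes PHOT1 with 6 members, CRY1 and UVR8 with 2 each and CRY2 and ZTL with 1 each, the phytochrome-interacting factor genes PIF4 with 3 and PIF5 with 1, and the B-box protein genes BBX21 with 3, BBX24 with 2 and BBX25 with 1. The PIF5 peak ranked 25 of 4762 by enrichment, with a score of 9.98. Wild-type peaks lay on 1 member of BBX24 in all 4 lists, on 1 of PHOT1 in 3 lists and on that of ZTL in mock replicate 2, and on no other member of these genes.

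In the ethylene, gibberellin and brassinosteroid lists each of the 8 genes with a 35S:FIP37 peak had a member, against 56.4% of genes over the whole list of peaks. Here too RNA level and the number of peaks per gene were not matched. The ethylene transcription factor genes EIN3 and EIL1 had 1 and 4 members and the F-box gene EBF2, whose product degrades both factors, had 1. The 3′-most EIL1 member was held by both mock lists and no NAA list. The DELLA genes GAI and RGA, repressors of gibberellin responses, had 1 and 3 members. Of the brassinosteroid genes, the receptor gene BRI1 had 3 members, the transcription factor gene BES1 had 2 and the kinase gene ASK7 (BIN2) had 1. No wild-type list held those of GAI, RGA, BRI1, BES1 and ASK7. The primary-wall cellulose synthase genes CESA1, CESA3 and CESA6 had 3, 4 and 3 members, 10 of 18 peaks. Of the m6A genes, ECT2 had 1 member among 3 peaks.

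Gene families picked by name showed a wide spread in the share of peaks that were members. It was 26.2% for cytosolic ribosomal proteins (45 of 172 peaks, on 37 genes), 28.9% for tubulins (11 of 38, on 9 genes), 20.8% for plasma membrane aquaporins (5 of 24, on 5 genes), 38.5% for subunits of the vacuolar proton pump (10 of 26, on 7 genes), 52.6% for RAB GTPases (10 of 19, on 5 genes) and 70.0% for RPN subunits of the proteasome (7 of 10, on 5 genes). The families with the smallest shares had high RNA levels: the member genes had medians of 127 RPKM for ribosomal proteins, 131 RPKM for tubulins and 126 RPKM for aquaporins, against 45.3 RPKM for RAB GTPases and 41.6 RPKM for RPN subunits.

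The wild-type lists are independent of the rule and were called for each replicate. A wild-type peak overlapped 20.8% (95% Wilson interval 19.1% to 22.7%) and 25.3% (23.4% to 27.3%) of the members in the 2 mock libraries. In the 2 NAA libraries it was 18.4% (16.7% to 20.2%) and 22.8% (21.0% to 24.7%). The intervals cover counting error only and take each peak as a separate draw, although several can lie on 1 gene or under 1 wild-type peak. For the other 35S:FIP37 peaks the shares were 19.6% and 23.96% with mock and 17.8% and 22.7% with NAA. The intervals of members and other peaks overlapped in every library. The mean difference was 0.802 percentage points, positive in 4 of 4 libraries (exact sign-flip permutation test, two-sided, p = 0.125, the smallest that 4 libraries allow). The difference was -0.146 percentage points for members at least 200 nt from the other lists (exact permutation p = 0.75), a distance chosen after seeing the data. It was 3.62 percentage points for 50-nt peaks of both kinds, positive in 4 of 4 libraries (exact permutation p = 0.125), also chosen after seeing the data.

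Within the genes of lowest RNA level the members were held more often than the other peaks in 4 of 4 libraries, for example 25.1% and 23.1% in mock replicate 1. Within the middle group they were held less often in 4 of 4 libraries, for example 17.8% and 24.7% in the same library. Among the genes of highest level members were held less often with replicate 1 of each treatment and more often with replicate 2. These comparisons within levels were not tested.

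Wild-type peaks that lay on members had a higher fold enrichment, as the authors gave it, than those on the other peaks in each library. The median fold was 1.98 and 1.96 at members with mock and 1.81 and 1.97 with NAA, against 1.75, 1.70, 1.67 and 1.71 at the other peaks. The mean difference was 0.225, positive in 4 of 4 libraries (exact sign-flip permutation test, two-sided, p = 0.125). Within their own lists these wild-type peaks had a median percentile of 45.6 to 53.8 at members and of 29.97 to 35.1 at the other peaks. Among 50-nt peaks of both kinds the gap in median fold was smaller. It was 1.93, 1.94, 1.80 and 1.92 at members and 1.84, 1.73, 1.66 and 1.71 at the others, in the same order of libraries. None of these values is matched for RNA level. A wild-type summit lay within 2000 nt of 711 to 965 of the 1891 members and of 1094 to 1513 of the 2871 other peaks. Its signed offset in the 3′ direction was taken from the middle of the peak. The median offset was 45.5 to 70.5 nt at members and 124 to 154.5 nt at the others. The others were longer, with a median of 100 nt on exons against 50 nt for members, and offsets were not matched for length. The offsets spread widely, with quartiles of -132.5 and 553.75 nt at members in NAA replicate 1. Of these summits 55.4% to 61.6% lay 3′ of members and 66.4% to 71.4% 3′ of the others. Within 100 nt a summit lay at 10.7% to 16.2% of members and 11.1% to 15.2% of the others.

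Of the members, 228 (12.1%, interval 10.7% to 13.6%) were held by all 4 wild-type lists and 1284 (67.9%) by none, against 12.3% and 69.9% of the other 35S:FIP37 peaks. The enrichment score in 35S:FIP37 had a median of 2.95 for the former and 2.47 for the latter, with median gene levels of 37.7 and 42.8 RPKM. Members with a wild-type peak in every library included those of HDA19 and ABCB19, 1 of the 2 of BBX24 and 2 of the 5 of AKINBETA1.

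The wild-type share at members was lower with NAA than with mock in each same-numbered pair, and replicate 1 was below replicate 2 in both treatments. The NAA mean was 2.49 percentage points below the mock mean (a difference of -2.49; exact permutation test over 4 libraries, two-sided, p = 0.667, where the smallest possible p is 0.333). The same difference was -1.55 at the other 35S:FIP37 peaks (exact permutation p = 0.667). The wild-type lists held 5867 and 6060 peaks with mock and 4469 and 5367 with NAA. Of the members, 14 (0.740%) were held by both NAA lists and no mock list, and 22 (1.16%) by both mock lists and no NAA list; among the other peaks it was 15 (0.522%) and 36 (1.25%). The former lie on AGO1, the effector protein gene of small RNAs, on the auxin response factor gene ARF2, on ERF5, an ethylene response factor gene, and on RPS18C, MDAR5, ACR4, AT3G04830, AT3G19680, BT2, SSL9, LAP2, 2-Cys Prx B, AT5G35200 and PKP2. The latter include EIL1, GAMMA CAL1, AT3G22850, UTR2, AT3G46450 and AT3G02300.

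The rule did not use RNA, although membership ran with the RNA level of the gene. Of the 1282 member genes, 1276 passed the mean of 1 RPKM and were tested in the fit of all 18072 genes (limma on log2(RPKM + 1), Benjamini-Hochberg adjusted over all genes, called under 0.05). "Rose" and "fell" are used for called genes, and fold changes are on that log2 scale, which understates the change of low genes.

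Member genes fell more often than they rose in fip37 LEC1:FIP37 against wild type. With mock, 627 of 1276 were called, 469 lower and 158 higher; the background over all genes was 38.8% called, 23.5% lower and 15.3% higher, against 36.8% and 12.4% of member genes. The median log2 difference was -0.21 for member genes and -0.07 for all genes tested. With NAA, 651 were called, 443 lower (34.7%) and 208 higher (16.3%), with a background of 43.8% called, 24.6% lower and 19.2% higher. The medians were -0.19 and -0.05. Over all levels, genes whose 35S:FIP37 peaks were all shared were nearer to the background, with 27.2% lower and 18.6% higher with mock. Among the 599 tested member genes with no peak in the 35S:FIP373A and tmk4 lists 40.4% were lower with mock. The split between lower and higher moved with the scaling of libraries. Under quantile normalization it was 384 lower and 248 higher with mock, against 4217 and 3589 of all genes. With NAA it was 317 lower and 331 higher, against 4283 and 4326, with a member median of 0.02, so that lower calls did not outnumber higher ones with NAA under that scaling. Median-ratio scaling gave 426 lower and 219 higher with mock, against 22.4% and 20.5% of all genes, and 447 and 241 with NAA, against 25.6% and 23.5%. Without wild-type NAA replicate 3 the count with NAA was 747, 539 lower and 208 higher, with a background of 50.5% called, 30.7% lower and 19.8% higher.

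**Figure D3:**
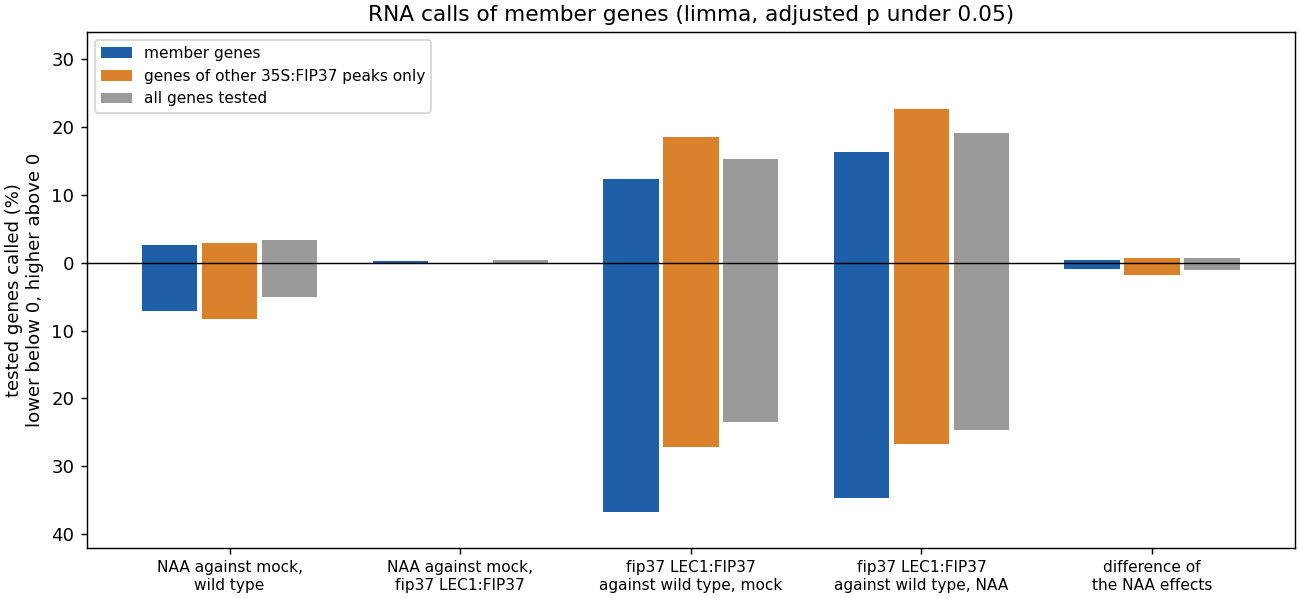
Share of tested genes called (per cent) in each RNA comparison, higher above 0 and lower below it, for member genes, genes of other 35S:FIP37 peaks only and all genes tested. Member genes have the largest share of lower calls of the 3 sets in both comparisons of fip37 LEC1:FIP37 with wild type, 36.8% and 34.7%.

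Part of this excess ran with the level of the genes. Between 30 and 100 RPKM, 40.8% of 595 member genes and 36.0% of all 2468 genes fell with mock, and 41.0% and 38.9% with NAA. Between 10 and 30 RPKM the shares were 30.9% and 28.2% with mock and 29.2% and 31.1% with NAA. At 100 RPKM and over they were 40.4% and 32.2% with mock and 34.3% and 29.6% with NAA. Between 1 and 10 RPKM, where 47 member genes lay, 17.02% and 16.6% fell with mock and 4.26% and 16.7% with NAA, and 31.9% and 16.9% rose with mock. Of the genes with only shared 35S:FIP37 peaks, 23.4% fell with mock at 10 to 30, 29.7% at 30 to 100 and 26.3% at 100 RPKM and over. With NAA it was 20.4%, 31.8% and 23.9%. Each of these shares of the shared-peak genes was below that of all genes of the same level. These comparisons within levels were not tested.

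The 2 comparisons with wild type contrast separate libraries, but both were tested in the same fit of 12 RNA libraries. They share each gene's estimate of spread, so calls in both are not independent. Without wild-type NAA replicate 3, member genes called with mock went from 627 to 768. Of the member genes, 346 (27.1%) fell in both comparisons, against 16.0% of all genes tested and 18.5% of the genes with only shared 35S:FIP37 peaks. These shares are for RPKM values as deposited, without further scaling, and are not matched for RNA level. In both comparisons 120 rose (9.40%, against 10.8% of all genes), and 4 moved in opposite directions. By wild-type peaks, 43.2% of the 199 genes with a member in all 4 wild-type lists fell with mock and 6.03% rose. Of the 761 with members in no wild-type list it was 35.5% and 14.5%. This split is not matched for RNA level and was not tested. Between 10 and 30 RPKM 26.9% of 67 and 32.9% of 219 genes fell with mock, in the same order. Between 30 and 100 RPKM it was 52.4% of 103 and 36.2% of 351, and at 100 RPKM and over 48.3% of 29 and 40.8% of 157. For the opposite selection, 436 tested genes with a 35S:FIP373A peak that overlapped neither other list and with no 35S:FIP37 peak, 20.2% fell and 26.6% rose with mock, and 28.4% fell and 20.2% rose with NAA.

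All 6 auxin perception genes with a member fell with mock in fip37 LEC1:FIP37, as did 23 of the 47 tested genes of the whole list, of which 3 rose. With NAA 3 of the 6 fell. Over all genes tested 23.5% were lower and 15.3% higher with mock, and 24.6% and 19.2% with NAA. Of all genes between 10 and 30 RPKM 28.2% were lower with mock and 31.1% with NAA. Between 30 and 100 RPKM it was 36.0% and 38.9%. Under quantile normalization 5 of the 6 auxin perception genes fell with mock and 2 with NAA. TIR1 had 34.1, 33.1 and 37.1 RPKM in wild type with mock and 18.6, 17.6 and 18.1 RPKM in fip37 LEC1:FIP37 with mock, and the groups did not overlap. The log2 difference was -0.90 (SE 0.12, adjusted p = 0.000109). IAA17 was at 12.2, 12.9 and 12.8 RPKM in wild type with mock and at 2.97, 3.02 and 1.83 RPKM in fip37 LEC1:FIP37. With NAA its values were 19.8, 19.0 and 29.5 RPKM against 4.12, 2.46 and 2.86 RPKM. It fell by 1.94 with mock (SE 0.20, adjusted p = 2.78e-05) and by 2.51 with NAA (SE 0.20, adjusted p = 3.54e-06), the largest changes among the listed auxin genes with a member, and both calls held without any 1 library. TMK1 fell by 0.66 with mock (SE 0.15, adjusted p = 0.00517). With single libraries left out, 4 to 6 of the 6 genes were called with mock. The IAA8 call was lost without fip37 LEC1:FIP37 mock replicate 2 (adjusted p = 0.0646), and the IAA18 call without wild-type mock replicate 2 (0.0648) or fip37 LEC1:FIP37 mock replicate 3 (0.0529). The ARF2 call was lost in 8 of 12 such fits, those without any mock library, wild-type NAA replicate 2 or fip37 LEC1:FIP37 NAA replicate 3, with adjusted p up to 0.138.

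Of the 6 auxin transport genes with a member, 3 fell and 1 rose with mock. Of the 18 tested genes of the whole list 10 fell and 2 rose. The background over all genes was 23.5% lower and 15.3% higher with mock, and 24.6% and 19.2% with NAA. With NAA 2 of the 6 fell and 1 rose, under quantile normalization 1 fell and 2 rose, and with single libraries left out 1 to 3 fell. AUX1 had 40.5, 38.0 and 41.9 RPKM in wild type and 23.2, 25.4 and 24.97 RPKM in fip37 LEC1:FIP37 with mock. It fell by 0.69 (SE 0.11, adjusted p = 0.000386). PIN7 fell by 1.05 (SE 0.15, adjusted p = 0.000278) and PIN3 by 0.81 (SE 0.15, adjusted p = 0.00118). ABCB1 moved the other way: it had 15.8, 13.9 and 14.1 RPKM in wild type and 20.6, 21.7 and 21.3 RPKM in fip37 LEC1:FIP37 with mock, and rose by 0.51 (SE 0.10, adjusted p = 0.00184). With NAA, AUX1 and PIN3 passed no test (adjusted p = 0.0903 and 0.279).

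All 3 cellulose synthase genes with a member fell in both comparisons, and of the 5 tested genes of the whole list 4 fell with mock and 3 with NAA. Over all genes tested 23.5% and 24.6% were lower and 15.3% and 19.2% higher, which is also the background for the families that follow. At the levels of most of these families it was larger. Of all genes between 30 and 100 RPKM 36.0% and 38.9% were lower, and of those at 100 RPKM and over 32.2% and 29.6%. For the families picked by name only genes with a member are given. CESA6 had 63.6, 66.7 and 72.1 RPKM in wild type with mock and 30.8, 32.2 and 28.5 RPKM in fip37 LEC1:FIP37. It fell by 1.12 (SE 0.16, adjusted p = 0.000194). CESA1 fell by 0.99 and CESA3 by 0.82 with mock, and under quantile normalization 2 of the 3 were lower with NAA. The CESA3 call with NAA was lost without wild-type NAA replicate 2 (adjusted p = 0.0551). Of the 7 vacuolar proton pump genes with a member, 5 fell with mock and 6 with NAA; under quantile normalization these were 5, with 1 that rose, and 3. Of the 5 RAB GTPase genes 4 fell in each comparison, against 2 and 4 under quantile normalization. Of the 5 aquaporin genes 4 fell with mock and 1 with NAA, also under quantile normalization; without wild-type NAA replicate 1 it was 3 with NAA, and their median difference with NAA went from -0.45 to 0.03 without wild-type NAA replicate 3. The 9 tubulin genes had 6 lower with mock and 3 lower and 1 higher with NAA, against 5 lower, and 1 lower and 2 higher, under quantile normalization. The ribosomal protein genes went from 12 lower and 2 higher with mock to 1 lower and 14 higher with NAA; under quantile normalization these were 10 lower and 9 higher, and 1 lower and 23 higher. Lower ribosomal calls with mock numbered 7 without wild-type mock replicate 2, and higher ones with NAA 9 without wild-type NAA replicate 2. Many of these families hold near-identical copies, and the authors' treatment of reads matching several genes is not stated, so values of such genes are uncertain.

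The light and brassinosteroid genes were mixed. Of the 3 brassinosteroid genes with a member, 1 fell and 1 rose in each comparison. With single libraries left out 1 to 2 fell with mock and 0 to 1 with NAA. Of the 14 tested genes of the whole brassinosteroid list, 7 fell and 3 rose in each comparison. Of the 10 light genes with a member, 4 fell with mock, and 3 fell and 3 rose with NAA; under quantile normalization 3 fell and 1 rose, and 1 fell and 4 rose. Without fip37 LEC1:FIP37 NAA replicate 3, 1 of the 10 fell with NAA. Of the 30 tested genes of the whole list, 10 fell and 3 rose with mock, and 11 fell and 5 rose with NAA. CRY2 fell by 0.59 and by 0.62 in the 2 comparisons, while PIF4, which promotes elongation growth, rose by 1.27 with NAA (SE 0.22, adjusted p = 0.000669). BES1 had 56.2, 53.2 and 51.6 RPKM in wild type with mock and 84.2, 76.9 and 95.7 RPKM in fip37 LEC1:FIP37, and rose by 0.66 with mock (SE 0.11, adjusted p = 0.000826) and by 1.11 with NAA (SE 0.11, adjusted p = 1.84e-05). GAI fell by 0.69 with mock (SE 0.16, adjusted p = 0.00499), whereas its log2 difference with NAA was 0.10 (adjusted p = 0.627).

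The genes named next were taken for the size of their called differences. XTH15, an enzyme gene of xyloglucan remodelling in the wall, had 803, 969.8 and 1222 RPKM in wild type and 9.72, 11.5 and 5.74 RPKM in fip37 LEC1:FIP37. It fell by 6.67 with mock (SE 0.57, adjusted p = 7.89e-06). With NAA it fell by 3.45. Its relative XTH22 fell by 2.88 with NAA (SE 0.24, adjusted p = 4.72e-06). AT3G16670 fell by 4.995 with mock and fell by 3.74 with NAA, and the cysteine protease gene RDL5 fell by 3.41 and fell by 3.19. Of the genes that rose, the beta-glucosidase gene BGLU18 had 26.6, 32.1 and 33.2 RPKM in wild type with mock and 303, 227 and 982 RPKM in fip37 LEC1:FIP37, a rise by 3.70 (SE 0.71, adjusted p = 0.00159). The arginase gene ARGAH2 rose by 3.35 (SE 0.32, adjusted p = 1.79e-05). AKINBETA1, with 5 members, had 198, 227 and 239 RPKM in wild type with mock and 47.9, 47.8 and 46.7 RPKM in fip37 LEC1:FIP37. It fell by 2.196 with mock (SE 0.18, adjusted p = 5.72e-06) and by 1.94 with NAA (SE 0.18, adjusted p = 7.65e-06). Of the other 6 genes with 5 or more members, ENT1 fell by 0.99 with mock and fell by 0.77 with NAA, and AT5G63620 fell by 0.59 and fell by 1.18. PHOT1 rose by 0.74 and AT1G01320 rose by 0.58 with NAA, the glutamate synthase gene GLT1 (AT5G53460) rose by 0.51 with mock, and AT5G06440 passed neither test (adjusted p = 0.898 and 0.257). The AT5G63620 call with mock was lost in 1 leave-one-out fit (without fip37 LEC1:FIP37 mock replicate 3, adjusted p = 0.0519). The other calls named here held without any 1 library and under both scalings.

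**Figure D4:**
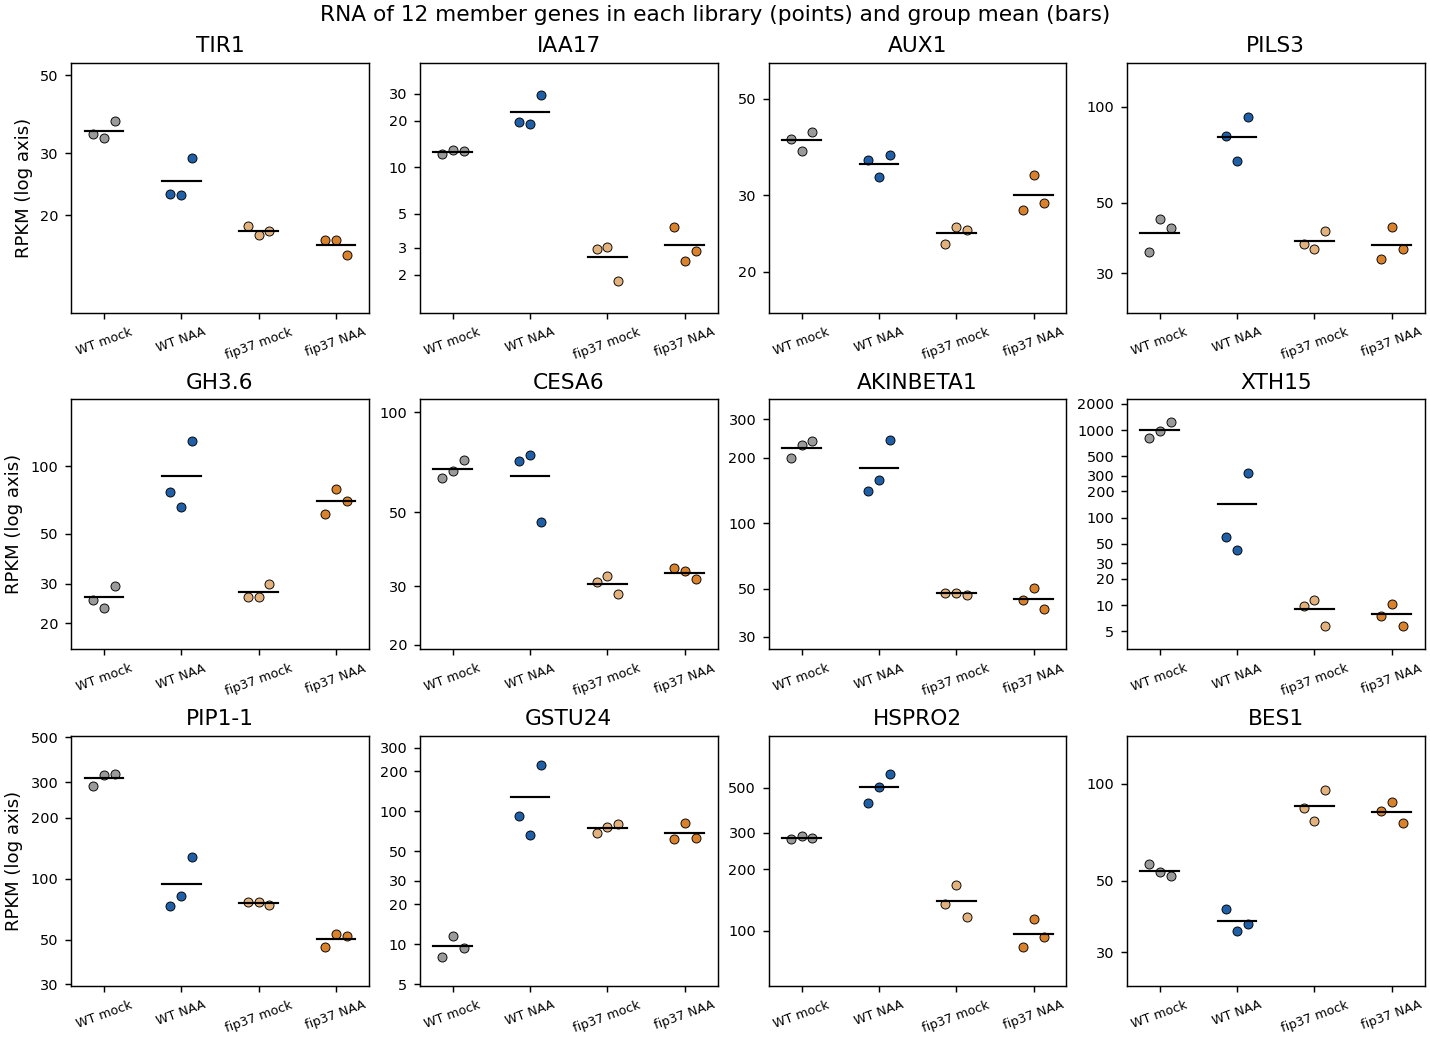
RNA of 12 member genes (RPKM, log axis) in wild type (WT) and fip37 LEC1:FIP37 (fip37) with mock or NAA; points are the 3 libraries of a group and bars their means. IAA17, CESA6, AKINBETA1 and XTH15 lie lower in both fip37 LEC1:FIP37 groups than in wild type, GH3.6 lies higher with NAA in both genotypes, and GSTU24 lies higher with NAA in wild type and about as high in both fip37 LEC1:FIP37 groups.

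In wild type, NAA changed few member genes, and the number depended on single libraries. Of 1276 member genes, 125 were called, 91 lower and 34 higher (9.80%), with a background of 8.35%, of which 5.0% lower and 3.35% higher. Median-ratio scaling gave 57 lower and 48 higher, against 3.78% lower and 4.83% higher of all genes. Quantile normalization gave 140 and 43, against 5.77% and 4.54%. Without wild-type NAA replicate 3 the count was 347, with a background of 22.8%. Without 1 of the other 5 wild-type libraries it was 25 to 70.

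GSTU24, a stress-induced glutathione transferase gene, had 8.09, 11.5 and 9.31 RPKM with mock and 92.8, 66.4 and 224 RPKM with NAA, a rise by 3.41 (SE 0.33, adjusted p = 0.000121). XTH15 fell by 3.37 with NAA (SE 0.57, adjusted p = 0.00442) and the aquaporin gene PIP1-1 by 1.76, from 287, 327 and 329 to 73.6, 82.3 and 128 RPKM (SE 0.17, adjusted p = 0.000123). Groups did not overlap for these 3 genes. GH3.6 rose by 1.71 with NAA in wild type (SE 0.21, adjusted p = 0.000574), from 25.4, 23.4 and 29.3 to 76.6, 65.6 and 130.2 RPKM. PILS3 rose by 0.98 (SE 0.14, adjusted p = 0.00188). Wild-type NAA replicate 3 had the highest GSTU24, PIP1-1 and GH3.6 values of its group; without it the differences were 2.91, -2.00 and 1.42, all still called.

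In fip37 LEC1:FIP37, NAA changed 4 of the 1276 member genes, 0.313%, 3 higher and 1 lower, with a background of 0.437%, of which 0.376% higher and 0.0609% lower. GH3.6 rose by 1.32 (SE 0.21, adjusted p = 0.0167), from 26.1, 26.3 and 29.9 to 61.4, 79.0 and 70.2 RPKM. AT5G02760 rose by 1.14 and NPY5 by 0.73, and AT4G15390 fell by 1.76. None of these calls held in every leave-one-out fit. Those of GH3.6 and AT4G15390 were lost in 4 of 12 fits, each without a fip37 LEC1:FIP37 library and with adjusted p up to 0.0930 and 0.103, that of AT5G02760 in 7 and that of NPY5 in 8.

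The difference of the NAA effects between the genotypes was called for 18 member genes (1.41%), with a background of 1.69%; 12 were lower (background 1.06%) and 6 higher (background 0.636%) in fip37 LEC1:FIP37. Under quantile normalization 13 were lower and 33 higher, against 1.31% and 1.42% of all genes. GSTU24 differed most, by -3.55 (SE 0.47, adjusted p = 0.00584): in fip37 LEC1:FIP37 it had 69.3, 76.9 and 80.0 RPKM with mock and 62.1, 81.1 and 63.0 RPKM with NAA. The wild-type NAA values were 92.8, 66.4 and 224 RPKM. AT3G56880 differed by -1.26 (SE 0.16, adjusted p = 0.00511). Both calls held without any 1 library. The number of calls was 179 without wild-type NAA replicate 3, 94 lower and 85 higher, with a background of 12.4%, of which 6.52% lower and 5.86% higher. It was 2 to 9 without any 1 of the other 5 wild-type libraries. Without fip37 LEC1:FIP37 mock replicate 2 or 3 or NAA replicate 1 or 3 it was 4 to 9. PILS3 differed by -1.01 (adjusted p = 0.0323) and PIP1-1 by 1.18 (adjusted p = 0.0354), and these calls were lost in 9 and 11 of 12 leave-one-out fits.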

How the data were processed

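m6A immunoprecipitates, inputs and RNA-seq libraries came from poly(A) RNA of whole seedlings, with strand-specific dUTP libraries and the Synaptic Systems m6A antibody, per the labels' protocols. The submitters' processing notes name STAR 2.5.3a, MACS2 and the TAIR10 build. Each of the 4 wild-type lists is a MACS 2.2.6 run of 1 immunoprecipitate with its own input, with a q-value threshold of 0.05 and fragments extended to 200 nt, per the file headers; 6420713 to 6714976 immunoprecipitated and 6866684 to 7459284 input tags were kept. These lists hold a signal (pileup), fold enrichment over the input as a ratio, and −log10 p-values and q-values, as deposited by the authors. For 35S:FIP37, 35S:FIP373A and tmk4 the authors deposited 1 list per genotype with an enrichment score and a column read as a p-value; no source used here gives the caller, the formula of the score or how replicates were joined. The table of RPKM values is as the authors deposited it; no source used here gives the counting tool, its annotation or its use of strand, and the depth behind single values is unknown. Where a column carries a genotype and no treatment, it was taken as mock.

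Whole spans of peaks were compared, with 1 shared base as overlap. Tools were pandas 2.3.3, SciPy 1.17.1, NumPy 2.4.6 and matplotlib 3.10.9 in Python 3.11.15. Libraries, not peaks, were the units of exact permutation tests, two-sided. RNA was tested over 12 libraries in 4 groups by the trend method of limma 3.58.1 (R 4.3.3) on log2(RPKM + 1), for 18072 of 34262 genes, those that averaged 1 RPKM or more. On simulated data for NAA against mock in wild type (18072 genes), 74 of 100 genes changed 2-fold and 99 of 100 changed 4-fold were recovered, with 6 false calls. The simulation gave each gene normal noise of the same SD in all 12 libraries. It therefore left out the wider spread of wild-type NAA replicate 3, and its numbers need not hold for the real comparison. Named are the 8 members of highest enrichment, members on listed pathway genes, the 5 widest called differences per comparison without overlap of groups, up to 5 members held with 1 treatment only each way, the 3 nearest members and the 3 smallest overlaps, and FIP37 and organ markers; genes with 5 or more members and families picked by name patterns were added after their values were seen. The members and lists were chosen with earlier results of these data known. Gene names come from the lists and RefSeq (TAIR10.1), which all 1282 member genes matched. Coordinates are those of the files, counted from 1. Alternatives were other overlaps, thresholds, pseudocounts, filters, scalings, definitions of members, a replicate block and leaving out each library.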

Additional observations from a re-analysis of the deposited data

Results flagged for a closer look

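Of the 18 member genes whose NAA effect differed between the genotypes by the test of the difference itself, 12 lower and 6 higher in fip37 LEC1:FIP37, the 7 named in the text are given here, 5 of them for the size of their difference (limma, Benjamini-Hochberg adjusted over 18072 genes; fip37 LEC1:FIP37 minus wild type, log2 scale). GSTU24 differed by -3.55 (SE 0.47, adjusted p = 0.00584), and its difference without wild-type NAA replicate 3 was -3.05. AT3G56880 differed by -1.26 (SE 0.16, adjusted p = 0.00511): it had 36.7, 34.1 and 32.3 RPKM with mock and 72.4, 74.1 and 89.6 RPKM with NAA in wild type, against 47.1, 47.8 and 55.2 and 48.4, 45.2 and 46.8 RPKM in fip37 LEC1:FIP37. HSPRO2, a gene of basal resistance to bacteria with 4 members, differed by -1.32 (adjusted p = 0.0193); it had 281, 289 and 285 RPKM with mock and 421, 505 and 579 RPKM with NAA in wild type, and 135, 168 and 117 and 83.3, 114 and 93.4 RPKM in fip37 LEC1:FIP37. Its call was lost without any 1 of the 3 wild-type mock libraries, with adjusted p of 0.0520, 0.0567 and 0.0650.

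AT4G19880 differed by -1.48 (adjusted p = 0.0232), from a rise by 1.28 in wild type to a difference of -0.21 in fip37 LEC1:FIP37. Its call was lost in 6 of 12 leave-one-out fits, with adjusted p up to 0.0709. The peroxidase gene PER34 differed by -1.35 (adjusted p = 0.0429), with neither NAA effect called on its own. Its call was lost in 8 of 12 leave-one-out fits, with adjusted p up to 0.129, and under quantile normalization (adjusted p = 0.0678). No sign changed in any of these fits, and the cause of the differences was not tested. The difference was 1.18 for PIP1-1 (adjusted p = 0.0354) and -1.01 for PILS3 (adjusted p = 0.0323), and no sign changed in their fits either, although the calls were lost in 11 and 9 of 12 leave-one-out fits.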

How the results depend on the processing

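The upper part of the list by enrichment (at or above its median) held 1110 members. Wild-type overlap of members against other peaks went from 0.802 to -0.146 percentage points for members at least 200 nt away (exact permutation p = 0.75), and leaving out libraries gave 0.631 to 1.04. NAA against mock at members lay between -4.71 and -0.264 percentage points when libraries were left out. Taken over genes with no other peak, member genes called numbered 54 for NAA in wild type, 302 and 299 for fip37 LEC1:FIP37 against wild type with mock and NAA, and 10 for the difference of the NAA effects, since fewer genes were tested. The difference gave 8 calls with no filter on low values and 46 under quantile normalization; the cause was not tested. Leaving out each library gave 25 to 347 calls for NAA in wild type, 0 to 8 for NAA in fip37 LEC1:FIP37, 470 to 768 and 540 to 747 for fip37 LEC1:FIP37 against wild type with mock and NAA, and 2 to 179 for the difference. For members at least 200 nt away the median level was 34.3 RPKM, against 38.7 RPKM. Same-numbered RNA libraries deviated together with correlations of -0.103 to 0.397, not all above 0.1. Differently numbered libraries were not correlated, so these values cannot decide whether the numbers pair the samples. The main fit used no pairing. With a replicate block the counts were 111, 3, 602, 637 and 19 in the order of the comparisons above, and the wild-type difference at members was -2.49 percentage points in the mean of 2 pairs (exact permutation p = 0.5, the smallest that 2 pairs allow). The 2 m6A libraries per group and the unknown RPKM depth limit precision.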
